A study of Mus musculus with 9 samples.

Results

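The 10 genes described here mark or build the loop of Henle and the distal tubule of the mouse nephron: the effectors *Slc12a1*, *Kcnj1*, *Umod*, *Slc12a3* and *Pvalb*, and the transcription factors *Irx1*, *Irx2*, *Irx3*, *Tfap2b* and *Sim1*. They were picked by symbol and not by their values, and each was found as 1 of the 24138 loci of an expression table of embryonic kidneys, so 10 of 10 were present. The study asked what netrin 1 (*Ntn1*), a secreted guidance cue made by kidney stroma, does in kidney development. RNA was sequenced from whole kidneys at E15.5, an embryonic stage at which nephrons are still being made, 3 kidneys of each of 3 genotypes from 3 crosses, with males and females mixed and every line kept on C57Bl6/J. Homozygous kidneys (MUT) were *Foxd1GC/+;Ntn1fl/fl*, with both *Ntn1* alleles floxed. Heterozygous kidneys (HET) were *Foxd1GC/+;Ntn1fl/+*, with 1 floxed *Ntn1* allele. Wild-type kidneys (WT) were *Ntn1fl/fl* with no Cre, so a floxed *Ntn1* allele was carried by every group. The GC allele puts a GFP-Cre fusion into the *Foxd1* locus, so Cre acts in stromal progenitors and their descendants and not in the nephron itself, and 1 *Foxd1* allele is replaced in HET and MUT but not in WT. A difference from WT therefore cannot be told apart from an effect of the *Foxd1* allele or of Cre, and the comparison of MUT with HET is the one in which both sides carry it.

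The nephron arises from progenitors that form an epithelial vesicle and then an S-shaped body, whose middle and distal parts lengthen into the loop of Henle and the distal tubule. The thick ascending limb of the loop takes up sodium, potassium and chloride without water, and the distal convoluted tubule beyond it takes up sodium and chloride and tunes magnesium and calcium. Iroquois and AP-2 transcription factors are switched on early in the forming distal segments, while the transporters and channels come on as the segments differentiate.

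Values are FPKM, the fragments per kilobase of transcript scaled to the size of the library, as the authors deposited them. FPKM are per length, so levels of different genes may be set side by side. Summed over loci, libraries held 453753 to 545598 FPKM. The number of reads is unknown, but the spacing of the lowest FPKM gave a relative depth of 0.57 to 1.28 with WT-1 set to 1, and the shallow libraries were WT-2 (0.57) and MUT-3 (0.613). *Ntn1*, the targeted gene, was between 17.8 and 28.9 FPKM in WT, between 12.0 and 16.5 in HET and between 10.8 and 16.5 in MUT, so it lay below WT in both Cre genotypes and overlapped between them. Some libraries stood apart by markers of other tissues. The 7 liver markers summed to 785 FPKM in HET-2 and to between 31.9 and 57.3 in the other libraries, the 8 markers of autonomic neurons and neural crest summed to 18.1 in HET-2 and to between 1.18 and 2.45 elsewhere, and the 7 skeletal muscle markers summed to 156 in HET-3 and to between 6.33 and 15.7 elsewhere. The 5 effectors summed to 25.2 FPKM in HET-2 and 19.0 in HET-3, the lowest of the HET libraries, against 25.0 in HET-1, and the part of the other tissues in these sums was not tested. In whole kidney, fewer cells of a type and less RNA per cell cannot be told apart.

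**Figure D1:**
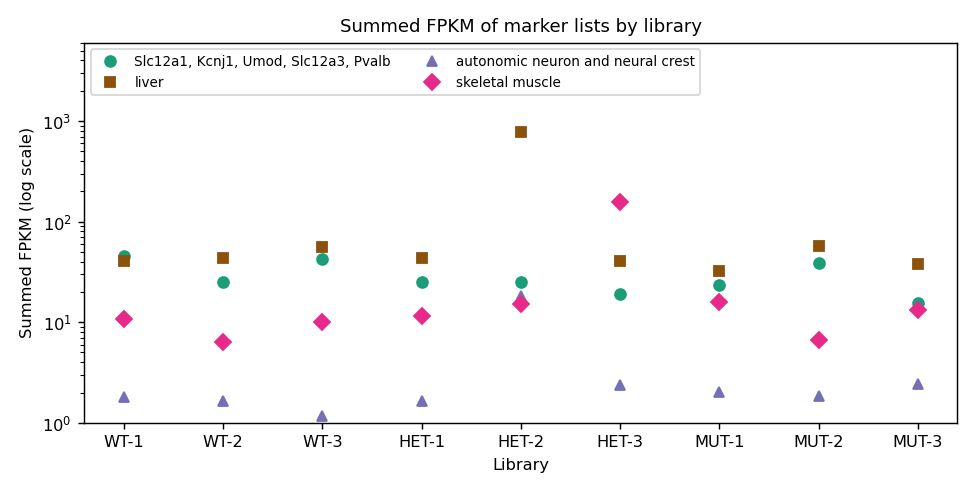
Summed FPKM on a log axis for the 5 effector genes (circles), 7 liver markers (squares), 8 markers of autonomic neurons and neural crest (triangles) and 7 skeletal muscle markers (diamonds), 1 point per list in each of the 9 libraries. HET-2 reached 785 FPKM for liver markers and HET-3 reached 156 for skeletal muscle markers, while the effectors stayed between 15.4 (MUT-3) and 45 (WT-1).

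Levels ranked the genes in much the same order in the 9 libraries. *Slc12a1* was the highest, with a mean of 22.0±7.55 FPKM (mean±s.d. over 9 libraries), and was above *Irx1* in 9 of 9. *Irx1* (13.5±3.95) and *Irx3* (13.0±1.94) could not be ordered, since *Irx1* was the higher in 5 of 9 libraries. *Tfap2b* (7.93±1.15) came next, below *Irx3* in 9 of 9 libraries with ranges that did not overlap. *Irx2* (5.30±1.2) and *Sim1* (5.29±1.22) were level, with *Irx2* the higher in 7 of 9. The effectors other than *Slc12a1* were lower than every transcription factor on average: *Kcnj1* had 3.48±1.48 FPKM, *Umod* 1.80±0.598 and *Slc12a3* 1.48±1.17. *Umod* exceeded *Slc12a3* in 7 of 9 libraries and their ranges overlapped. Of the 10 genes, 6 passed the 5 FPKM minimum used for testing (*Slc12a1* and the 5 transcription factors), so the values given for *Kcnj1*, *Umod*, *Slc12a3* and *Pvalb* come from the fit without a minimum.

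**Figure D2:**
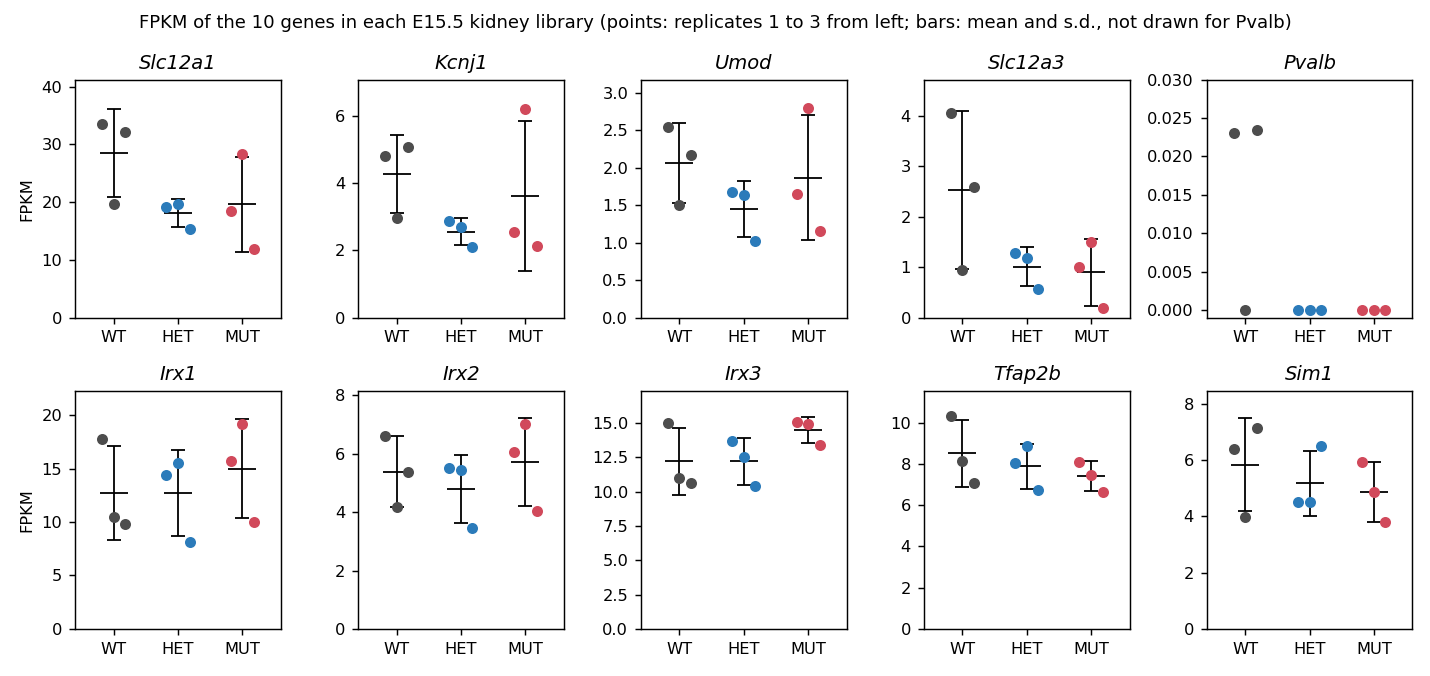
FPKM (vertical axes, each starting at or just below 0) of each of the 10 genes in WT, HET and MUT kidneys, with a point for each library in the order of its number and a bar for the mean and s.d. of the 3 libraries. *Slc12a1*, *Kcnj1*, *Umod*, *Slc12a3* and *Irx2* share a pattern in which WT-2 is the low WT library and MUT-2 the high MUT library. *Pvalb* was above 0 in WT-1 and WT-3 alone.

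The promoters of the 4 detected effectors are shown because these genes varied together from library to library, as described further on. Each line holds the 250 bases before a RefSeq transcript start (GRCm38.p6), 5′ to 3′ on the strand of the gene, and a promoter was found in that table for 9 of the 10 genes. Capitals mark matches to 5 motifs searched on both strands: ATGCAAAT, the POU octamer (1.6% of 32841 promoter windows), AAGGTCA, the site of estrogen-related receptors (4.08%), GCCNNNGGC, the AP-2 site (13.7%), ACANNTGT, the Iroquois site (6.31%), and TATAAA, the TATA box (12.4%). No 2 marked matches overlap in these 4 windows. Bases just after the start were found in a GENCODE transcript of the gene for each of the 4 windows except that of *Slc12a1*. The *Slc12a1* window is chr2:125152350-125152599 (plus strand), that of *Kcnj1* is chr9:32393735-32393984 (plus strand, before 1 of the 2 starts of the locus), that of *Umod* is chr7:119479263-119479512 (minus strand) and that of *Slc12a3* is chr8:94328958-94329207 (plus strand).
Slc12a1: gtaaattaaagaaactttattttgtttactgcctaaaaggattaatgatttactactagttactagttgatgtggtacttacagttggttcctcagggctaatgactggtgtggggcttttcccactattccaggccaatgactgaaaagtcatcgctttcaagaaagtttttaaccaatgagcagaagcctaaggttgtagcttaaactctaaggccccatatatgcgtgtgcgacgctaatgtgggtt
Kcnj1: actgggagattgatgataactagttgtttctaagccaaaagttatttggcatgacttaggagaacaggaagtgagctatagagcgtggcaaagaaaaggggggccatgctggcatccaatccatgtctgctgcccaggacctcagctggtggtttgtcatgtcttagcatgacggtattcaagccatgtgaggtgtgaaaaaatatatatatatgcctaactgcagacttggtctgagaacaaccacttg
Umod: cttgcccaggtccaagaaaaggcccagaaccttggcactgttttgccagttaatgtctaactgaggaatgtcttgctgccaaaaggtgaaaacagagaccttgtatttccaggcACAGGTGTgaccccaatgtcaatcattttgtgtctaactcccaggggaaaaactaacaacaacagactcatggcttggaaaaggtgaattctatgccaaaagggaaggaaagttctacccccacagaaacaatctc
Slc12a3: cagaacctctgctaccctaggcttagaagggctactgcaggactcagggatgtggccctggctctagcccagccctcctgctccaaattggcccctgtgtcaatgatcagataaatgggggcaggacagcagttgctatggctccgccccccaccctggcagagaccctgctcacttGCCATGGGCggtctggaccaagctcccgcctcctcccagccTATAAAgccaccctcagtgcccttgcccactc
The *Umod* window holds an Iroquois match at -136 to -129, counted back from -1 at the base before the start. The *Slc12a3* window holds an AP-2 match at -73 to -65 and TATAAA at -32 to -27. The windows of *Slc12a1* and *Kcnj1* hold none of the 5, which says only that these letters are not in those windows. Genes with and without matches thus varied together, and a match is a description of the letters and not a site of binding.

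*Slc12a1* encodes NKCC2, the apical sodium-potassium-chloride cotransporter of the thick ascending limb and macula densa, and its locus is at chr2:125152600-125230001 on the plus strand (mm10). In WT kidneys it was at 33.6 (WT-1), 19.6 (WT-2) and 32.2 FPKM (WT-3). The HET kidneys had 19.2, 19.7 and 15.3 FPKM and the MUT kidneys 18.4, 28.3 and 11.9, in the order of their numbers, as in every later list of values. WT-2 lay within the HET range, MUT-2 was near the high WT libraries and MUT-3 was the lowest of all, so no pair of genotypes was separated. The means were 28.5±7.70 in WT, 18.1±2.42 in HET and 19.6±8.24 in MUT (n=3 each).

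*Kcnj1* encodes ROMK, the apical potassium channel that returns potassium to the lumen so that NKCC2 can keep working (chr9:32372418-32399194, plus strand). WT kidneys had 4.81, 2.95 and 5.06 FPKM, HET kidneys 2.86, 2.69 and 2.09, and MUT kidneys 2.55, 6.19 and 2.12. All 3 HET libraries lay below all 3 WT libraries, with HET-1 and WT-2 close together, while the MUT libraries ran from near the lowest HET value to the highest of all. *Umod* encodes uromodulin, the glycoprotein that the thick ascending limb secretes into urine (chr7:119462708-119479262, minus strand). It was at 2.55, 1.5 and 2.17 FPKM in WT, 1.68, 1.64 and 1.02 in HET, and 1.65, 2.80 and 1.16 in MUT. The genotypes overlapped, with MUT-2 the highest library and HET-3 the lowest.

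*Slc12a3* encodes NCC, the thiazide-sensitive sodium-chloride cotransporter that defines the distal convoluted tubule (chr8:94329208-94366221, plus strand). It was the most variable of the detected genes, with 4.06, 0.942 and 2.59 FPKM in WT, 1.28, 1.19 and 0.574 in HET, and 1.01, 1.49 and 0.187 in MUT. The highest library (WT-1) was 21.8 times the lowest (MUT-3), against 2.81 times for *Slc12a1*. Set against *Slc12a1* in the same library, *Slc12a3* was 12.1%, 4.81% and 8.02% in WT, 6.65%, 6.04% and 3.76% in HET and 5.47%, 5.26% and 1.56% in MUT. *Kcnj1* held a steadier share of *Slc12a1*, between 13.6% and 15.7% in the WT and HET libraries, with 13.8%, 21.9% and 17.8% in MUT. *Umod* was between 6.69% and 9.89% of *Slc12a1* in all 9 libraries. *Pvalb* encodes parvalbumin, a calcium buffer of the early distal convoluted tubule and of fast muscle and some neurons (chr15:78191118-78206351, minus strand). It was listed at 0.0230 FPKM in WT-1 and 0.0234 in WT-3, and at 0 in the other libraries. That includes HET-3, the library with high skeletal muscle markers, so *Pvalb* gave no measure of the distal convoluted tubule at this stage and depth.

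*Irx1*, *Irx2* and *Irx3* encode Iroquois homeodomain factors that mark the middle and distal parts of the forming nephron. *Irx1* (chr13:71958232-71963723, minus strand) was at 17.8, 10.5 and 9.82 FPKM in WT, 14.4 in HET-1 and 8.09 in HET-3 with HET-2 just under MUT-1, and 15.7, 19.2 and 10 in MUT. *Irx2* (chr13:72628978-72634194, plus strand), a neighbor of *Irx1* on chromosome 13, was at 6.60, 4.17 and 5.38 FPKM in WT, 5.51, 5.45 and 3.45 in HET, and 6.07, 7.01 and 4.05 in MUT. Both were lowest in HET-3 and highest in MUT-2, and the ranges of the genotypes overlapped for both. *Irx3* (chr8:91798511-91801654, minus strand) was at 15.0, 11 and 10.6 FPKM in WT, 13.7, 12.5 and 10.4 in HET, and 15.1, 14.9 and 13.4 in MUT. Its highest library was 1.46 times its lowest, against 1.55 times for *Tfap2b* and more for the other detected genes, and the s.d. of MUT was 0.963 FPKM around a mean of 14.5. The other 3 Iroquois genes were lower: *Irx5*, next to *Irx3*, ranged from 1.97 FPKM in HET-3 to 3.28 in MUT-2, and the summed level of *Irx4*, *Irx5* and *Irx6* was between 2.28 and 3.56.

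*Tfap2b* encodes AP-2 beta, a factor needed for distal convoluted tubule formation (chr1:19208914-19238845, plus strand). It was at 10.3, 8.15 and 7.09 FPKM in WT, 8.05, 8.89 and 6.73 in HET, and 8.09, 7.48 and 6.64 in MUT, and the genotypes overlapped. *Tfap2b* is also expressed by neural crest, and HET-2, where the neural crest list summed to 18.1 FPKM, had the highest HET value, which was within the WT range. The part of those cells in the value was not tested. *Sim1* encodes a bHLH-PAS transcription factor (chr10:50895651-50989152, plus strand) and was at 6.40, 3.97 and 7.13 FPKM in WT, 4.51, 4.50 and 6.51 in HET, and 5.94, 4.88 and 3.79 in MUT. It was the one transcription factor whose highest HET library was HET-3, the library with high skeletal muscle markers, and the part of those cells in it was not tested.

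The comparison of MUT with HET asks what losing the second stromal *Ntn1* allele changed. None of the 9 detected genes passed the test, and *Pvalb* was listed at 0 in all 6 libraries. The ratio of mean FPKM (MUT over HET) was 1.08 for *Slc12a1*, 1.42 for *Kcnj1*, 1.29 for *Umod* and 0.882 for *Slc12a3*. On the log2(FPKM + 1) scale, which understates the change of low genes, limma gave log2 fold changes of 0.04 for *Slc12a1* (standard error 0.24), 0.29 for *Kcnj1* (0.32), 0.20 for *Umod* (0.22) and -0.14 for *Slc12a3* (0.29). Their Benjamini-Hochberg adjusted p from limma were 0.975, 0.862, 0.862 and 0.92. The 3 Iroquois members each had a positive log2 fold change, of 0.23 for *Irx1* (standard error 0.25), 0.20 for *Irx2* (0.21) and 0.23 for *Irx3* (0.12), while *Tfap2b* was at -0.08 (0.13) and *Sim1* at -0.07 (0.19). Of the 6 members tested at 5 FPKM, 4 were positive, against 45.9% of loci. *Irx3* came closest to a difference, with a limma p of 0.0743 before adjustment and 0.738 after it, and an exact two-sided permutation p of 0.2, where 3 libraries against 3 cannot go below 0.1. Of the 6 members tested, 0 passed the adjusted threshold of 0.05, as did 0% of 10081 loci, and 0 had an unadjusted p below 0.05, against 6.31% of loci. Libraries of MUT and HET overlapped for all 6, against 9.69% of loci where they did not overlap. Single libraries set the direction of the effectors: without MUT-2 the log2 fold change was -0.26 for *Slc12a1*, -0.09 for *Kcnj1* and -0.02 for *Umod*, without HET-3 it was -0.07 for *Slc12a1*, and without MUT-3 it was 0.17 for *Slc12a3*. Among the transcription factors, *Irx1* turned to -0.04 without HET-3, *Tfap2b* came to 0.00 without HET-2 and *Sim1* turned to 0.07 without MUT-3.

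HET and MUT were next set against the same 3 WT libraries, so the fold changes that follow are not independent of each other. In HET against WT the 4 detected effectors all had negative log2 fold changes: -0.60 for *Slc12a1* (standard error 0.19), -0.55 for *Kcnj1* (0.20), -0.32 for *Umod* (0.17) and -0.72 for *Slc12a3* (0.35). In mean FPKM, HET was at 0.635, 0.596, 0.699 and 0.401 of WT. The limma p before adjustment was 0.00967 for *Slc12a1* and 0.028 for *Kcnj1*, with an adjusted p of 0.998 for each, so neither passed. The exact permutation p was 0.2 for *Slc12a1* and 0.1, the smallest possible, for *Kcnj1*. Of the 6 members tested at 5 FPKM, 1 (*Slc12a1*) was lower at an unadjusted p below 0.05, against 0.524% of 10105 loci, and 0 had libraries that did not overlap in the lower direction, against 1.06%. Of the 10 members tested without a minimum, 2 (*Slc12a1* and *Kcnj1*) were lower at that p, against 1.1% of 19205 loci, and *Kcnj1* was the 1 whose HET libraries all lay below WT, against 2.07%. At a minimum of 1 FPKM, 3 of 9 members (*Slc12a1*, *Kcnj1* and *Slc12a3*) were lower at that p, against 0.728% of 13056 loci. The limma p of *Slc12a3* before adjustment was 0.044 in that fit and 0.0818 without a minimum. In that fit *Kcnj1* alone had HET libraries all below WT, against 1.44%. These shares rest on 1 to 3 genes and are larger than the background, and 0% of loci passed after adjustment in any of these fits. Leaving out 1 library moved *Slc12a1* between -0.84 and -0.46, *Kcnj1* between -0.75 and -0.44, *Umod* between -0.47 (without WT-2) and -0.19 (without HET-3) and *Slc12a3* between -1.10 (without WT-2) and -0.41 (without WT-1), all without a call. Without both HET-2 and HET-3 they were at -0.51, -0.42, -0.18 and -0.53. In the same comparison, at a minimum of 1 FPKM, all 5 smooth muscle markers were positive (median 0.54), and 0 passed after adjustment. Of these, 3 (*Actg2*, *Myh11* and *Cnn1*) were higher at an unadjusted p below 0.05, against 0.774% of loci. All HET libraries lay above WT for the same 3, against 2.57% of loci. The 5 markers summed to 98.6 to 126 FPKM in WT and 118 to 172 in HET. The part of smooth muscle cells in the effectors' values was not tested.

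The transcription factors lay nearer to 0 in HET against WT, with *Irx1* at 0.00 (standard error 0.25, and 0.01 with quantile rescaling), *Irx2* at -0.14 (0.21), *Irx3* at 0.01 (0.15), *Tfap2b* at -0.09 (0.15) and *Sim1* at -0.13 (0.21). Each of these directions turned when a single library was left out, with *Irx1* between -0.16 and 0.27 (the latter without HET-3), *Irx2* up to 0.04 (without HET-3), *Irx3* down to -0.08 (without WT-3), *Tfap2b* up to 0.04 (without WT-1) and *Sim1* up to 0.01 (without WT-3). Of the 6 members tested at 5 FPKM, 1 was positive, against 52.4% of loci. The adjusted p of the 5 transcription factors was 0.998 for each by limma.

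In MUT against WT the effectors were again lower on average. The log2 fold change was -0.56 for *Slc12a1* (standard error 0.28), -0.27 for *Kcnj1* (0.34), -0.12 for *Umod* (0.23) and -0.86 for *Slc12a3* (0.40), which in mean FPKM was 0.687, 0.847, 0.902 and 0.354 of WT. The limma p before adjustment was 0.0765 for *Slc12a1* and 0.0694 for *Slc12a3*, and the adjusted p was 0.9998 for *Slc12a1* and 0.9997 for the other 3. *Irx1* was at 0.22 (0.25), *Irx2* at 0.06 (0.21), *Irx3* at 0.25 (0.14), *Tfap2b* at -0.17 (0.15) and *Sim1* at -0.20 (0.22). Of the 6 members tested, 0 had an unadjusted p below 0.05, against 0.644% of 10096 loci, 3 were positive, against 48.7%, 0 had libraries apart from WT, against 2.65%, and 0 passed after adjustment, as did 0% of loci. Leaving out MUT-2 or MUT-3 moved the effectors in opposite directions: *Slc12a1* was at -0.86 without MUT-2 and -0.27 without MUT-3, *Kcnj1* at -0.64 and -0.04, and *Umod* at -0.35 and 0.06. *Slc12a3* ran from -1.23 (without WT-2) to -0.54 (without WT-1), and *Irx2* turned to -0.08 without MUT-2 or without WT-2. Among the other transcription factors, *Irx1* ran from 0.03 (without MUT-2) to 0.47 (without MUT-3), *Irx3* from 0.16 (without WT-3) to 0.39 (without WT-1), *Tfap2b* from -0.28 (without WT-3) to -0.04 (without WT-1) and *Sim1* from -0.42 (without WT-2) to -0.06 (without WT-3).

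**Figure D3:**
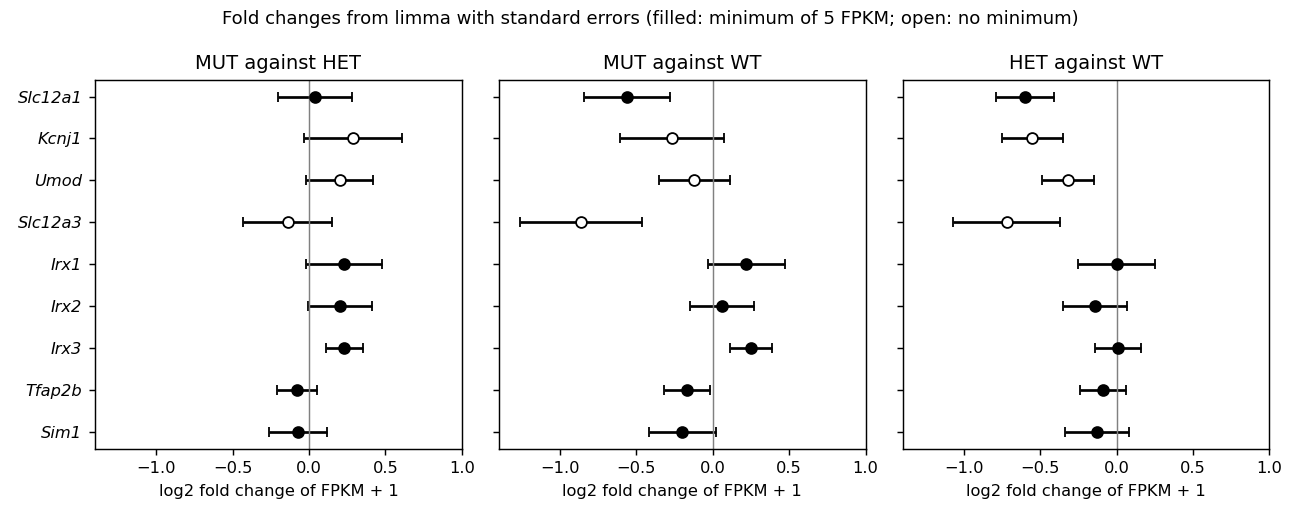
Log2 fold change of FPKM + 1 from limma (horizontal axes, bars for the standard error) for 9 genes in MUT against HET, MUT against WT and HET against WT, with filled points from the fit at 5 FPKM and open points from the fit without a minimum. The 4 effectors lie left of 0 in both comparisons with WT, from -0.12 (*Umod*, MUT) to -0.86 (*Slc12a3*, MUT), and between -0.14 and 0.29 in MUT against HET.

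Kidneys of 1 genotype differed widely from each other, and they did so in the same way for each detected effector. Over the 9 libraries, on the log2(FPKM + 1) scale, *Slc12a3* followed *Slc12a1* with a Pearson r of 0.95 (exact permutation p = 3.03e-05, adjusted p = 0.000394 over 13 relations) and a Spearman rho of 0.92 (exact p = 0.00131, adjusted 0.00853). For *Kcnj1* r was 0.92 (exact permutation p = 0.000879, adjusted 0.00381) and rho 0.87 (exact p = 0.00451, adjusted 0.0147), and for *Umod* r was 0.91 (exact permutation p = 0.0012, adjusted 0.0039) and rho 0.80 (exact p = 0.0138, adjusted 0.036). Without WT-1 and WT-3, the libraries farthest from the median of *Slc12a1*, r was 0.93, 0.89 and 0.91 for *Slc12a3*, *Kcnj1* and *Umod*. On deviations from each genotype's own mean it was 0.93, 0.94 and 0.96, so the relation was present within genotypes. *Slc12a1* left a gap between 6 libraries at or under 19.7 FPKM and 3 at or above 28.3. Over those 6 alone, chosen after the values were seen, r was 0.97 for *Slc12a3* (exact permutation p = 0.0153, adjusted 0.0301 over 5 relations) and 0.87 for *Kcnj1* (exact p = 0.0181, adjusted 0.0301), but 0.80 for *Umod* (exact p = 0.0583, adjusted 0.0583), and rho was 0.71, 0.77 and 0.49 (exact p = 0.136, 0.103 and 0.356). For the transcription factors r with *Slc12a1* was 0.72 for *Irx2* (exact permutation p = 0.0278, adjusted 0.0517; rho 0.60, exact p = 0.0968, adjusted 0.157), 0.54 for *Sim1* (rho 0.40), 0.51 for *Tfap2b* (0.57), 0.49 for *Irx1* (0.47) and 0.15 for *Irx3* (0.15), where the exact p of r in the last 4 was between 0.135 and 0.687, the adjusted p between 0.195 and 0.687. Without WT-1 and WT-3, r was 0.77 for *Irx1* and for *Irx2*, 0.53 for *Tfap2b*, 0.34 for *Irx3* and 0.10 for *Sim1*. On deviations from each genotype's mean it was 0.89 for *Irx2*, 0.74 for *Irx1*, 0.51 for *Irx3*, 0.48 for *Sim1* and 0.41 for *Tfap2b*. Whether these r differ from those of the effectors was not tested. The 13 relations were of chosen genes, and the share of all loci with an r this high was not computed. These p therefore do not say whether the relation is particular to these genes. The permutations moved libraries across genotypes, and the r on deviations from genotype means have no p.

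A gene of another differentiated nephron segment followed *Slc12a1* as well. For *Slc34a1*, the phosphate transporter of the proximal tubule, r was 0.86 (exact permutation p = 0.00235, adjusted 0.0061) and rho 0.92 (exact p = 0.00131, adjusted 0.00853), and r was 0.85 without WT-1 and WT-3. Over the 6 libraries with the lowest *Slc12a1*, r was 0.82 (exact permutation p = 0.0431, adjusted 0.0538) and rho 0.77 (exact p = 0.103, adjusted 0.17). For *Six2*, a nephron progenitor factor, r was -0.65 (exact permutation p = 0.0497, adjusted 0.0808) and rho -0.68 (exact p = 0.0503, adjusted 0.103), and r was -0.41 without WT-1 and WT-3, so this relation did not pass and leaned on those libraries. Among 9977 loci, those most like *Slc12a1* over the 9 libraries by Pearson r of log2(FPKM + 1) included *Atp6v1b1* (r of 0.97) and *Spp1* (0.96). Both of these r were above those of *Slc12a3*, *Kcnj1* and *Umod*. *Atp6v1b1* ranged from 4.66 FPKM in MUT-3 to 11.6 in WT-1, and *Spp1* from 4 in MUT-3 to 20.8 in MUT-2. The loci most like *Irx1* were others, namely *Nsmf* (0.98), *Tnfrsf21* (0.97) and *Snx8* (0.97).

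**Figure D4:**
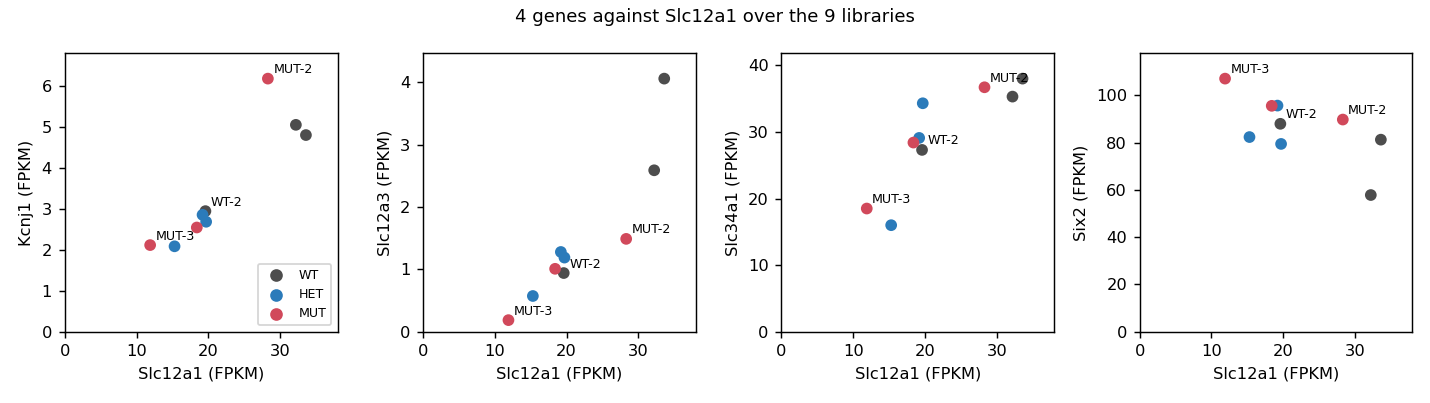
FPKM of *Kcnj1*, *Slc12a3*, *Slc34a1* and *Six2* (vertical axes) against FPKM of *Slc12a1* (horizontal axes), 1 point per library, colored by genotype, with WT-2, MUT-2 and MUT-3 labeled. The first 3 genes are low where *Slc12a1* is low (11.9 FPKM in MUT-3) and high where it is high (33.6 FPKM in WT-1), with r (of log2(FPKM + 1)) of 0.92, 0.95 and 0.86, and *Six2* has an r of -0.65.

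By library, MUT-3 was the lowest MUT library for all 9 detected genes, and HET-3 the lowest HET library for all of them but *Sim1*. MUT-2 was the highest MUT library for the 4 detected effectors, *Irx1* and *Irx2*. On the log2(FPKM + 1) scale, MUT-3 lay 0.76 below the mean of the 9 libraries for *Slc12a1* and 0.94 below it for *Slc12a3*, while WT-1 lay 0.65 and 1.15 above. The relative depth was 0.613 in MUT-3, 0.57 in WT-2, 1.05 in HET-3, 1.08 in MUT-2 and 1 in WT-1, and its part in these levels was not tested. The labels name no sequencing batch or date by which the libraries could be split. The 6 podocyte markers summed to 123 FPKM in HET-3 and 131 in MUT-3, against 221, 146 and 150 in the WT libraries. For the 8 proximal tubule markers the sums were 55.7 and 58.6, against 106, 86.3 and 112 in WT. The 6 nephron progenitor markers summed to 349 in MUT-3, the highest of the 9 libraries, and to 233 in WT-3, the lowest. The part of kidney stage or of the mix of cells in the spread of the distal genes was not tested.

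**Figure D5:**
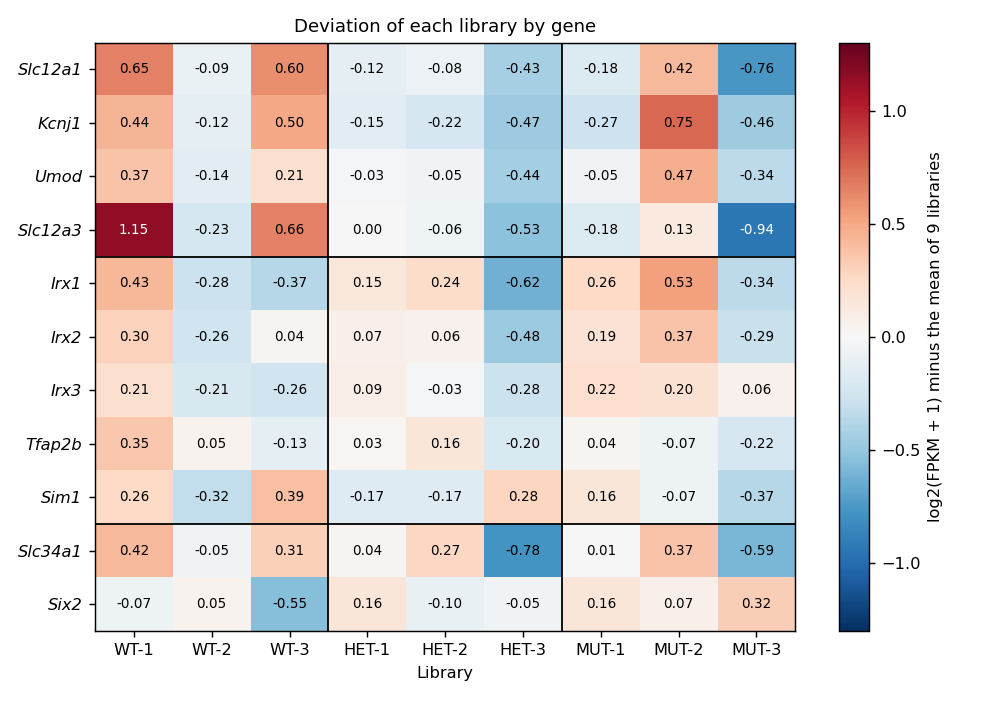
Deviation of each library (columns) from the mean of the 9 libraries on the log2(FPKM + 1) scale (color, with the value printed) for the 4 detected effectors, the 5 transcription factors, and *Slc34a1* and *Six2*. MUT-3 and HET-3 are negative for all 4 effectors (-0.34 to -0.94 in MUT-3) and WT-1 is positive (0.37 to 1.15). *Irx1*, *Irx2*, *Tfap2b* and *Slc34a1* have the same signs in these libraries, while *Irx3* and *Sim1* do not.

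Other genes of the same segments, chosen by their known roles, likewise gave no difference that was called after adjustment. Of 14 genes of the thick ascending limb and macula densa, 8 reached a mean of 1 FPKM in HET or WT, and in HET against WT all 8 had negative log2 fold changes with a median of -0.33, against a median of 0.00 over all loci, and 0 passed after adjustment. In that comparison 3 of the 8 (*Cldn16*, *Bsnd* and *Ptger3*) had an unadjusted p below 0.05, against 0.728% of loci in the lower direction, and for 2 (*Cldn16* and *Ptger3*) all HET libraries lay below WT, against 1.44%. In MUT against WT 7 of 8 were negative (median -0.35), and in MUT against HET 3 of 7 (median 0.05). The highest of this list included *Cldn10* and *Cldn19*, claudins of the paracellular path for cations, and *Bsnd*, which encodes barttin. *Cldn10* went from 7.63 FPKM in HET-3 to 19.7 in MUT-2, *Cldn19* from 7.37 in HET-3 to 14.7 in WT-1, and *Bsnd* from 2.34 in MUT-3 to 5.58 in MUT-2, with genotypes that overlapped.

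Of 17 genes of the distal convoluted and connecting tubule, 16 reached 1 FPKM in comparisons with WT. In HET against WT 13 were negative and 3 positive (median -0.14), with 3 (*S100g*, *Kcnj16* and *Trpv5*) lower at an unadjusted p below 0.05, against 0.728% of loci, and 0 called after adjustment. All HET libraries lay below WT for 3 (*Trpv5*, *Kcnj10* and *Kcnj16*), against 1.44% of loci. In MUT against WT 8 were negative and 8 positive (median 0.01), and in MUT against HET 12 of 15 were positive (median 0.15, against -0.01 over all loci). The 4 highest were *Fxyd2*, the gamma subunit of the sodium pump, *Calb1* and *S100g*, calcium-binding proteins of the distal tubule, and *Cul3*, a ubiquitin ligase scaffold that acts on the kinases of NCC. *Calb1*, which is also made by the ureteric bud, was steady at 67.9 to 106 FPKM. *S100g* was high in MUT-2 and low in MUT-1 and HET-3, with 90.6, 60.0 and 105 FPKM in WT, 67.4, 63.2 and 35.8 in HET, and 35.0, 121 and 49.1 in MUT. Its locus in the table spans chrX:162407200-163352564, far longer than the gene, so its value may hold reads of others. *Fxyd2* ran from 87.6 FPKM in HET-3 to 199 in MUT-2, with WT between 142 and 175.

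The highest of the 19 genes of distal nephron patterning include *Pax2*, *Pax8* and *Emx2*. In HET against WT alone, the median of this list lay closer to 0 than those of both lists above. Of the 19 loci that reached 1 FPKM, 13 were negative in HET against WT (median -0.07), 7 in MUT against WT (median 0.03) and 6 in MUT against HET (median 0.11), and 0 passed after adjustment in any of the 3. *Pax2*, which the nephron lineage and ureteric bud share, was at 47.6, 36.2 and 48.8 FPKM in HET and 68.6, 43.9 and 62.6 in MUT. Its log2 fold change in MUT against HET was 0.38 (standard error 0.18), with a limma p of 0.0536 before adjustment and 0.738 after. Beside these lists, in HET against WT the 6 podocyte markers were all negative (median -0.33), as were the 8 proximal tubule markers (median -0.30). Negative values in HET against WT were thus not particular to the distal segments. In the opposite direction, 5 of 6 nephron progenitor markers were positive in that comparison (median 0.16). In MUT against WT, 3 of 6 podocyte markers were positive (median 0.01) and 1 of 8 proximal tubule markers was (median -0.34).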

How the data were processed

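Whole-kidney RNA of 9 E15.5 libraries was made with a stranded mRNA kit. The deposited FPKM are the output of CuffDiff on reads that the authors mapped to mm10 with STAR and assembled with cufflinks and cuffmerge, per their methods and processing notes. Tool versions, annotation and strand setting are not given in the sources used here. 3 columns of the authors' genotype means were not used. Locus starts in the table count from 0, so 1 was added.

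Loci whose mean reached 5 FPKM (the study's minimum) in 1 of the genotypes compared entered limma 3.58.1 (R 4.3.3; lmFit and trended eBayes) as log2(FPKM + 1), two-sided, with Benjamini-Hochberg adjustment over all loci tested and a threshold of 0.05. Each fit held only the 6 libraries compared. Single values were also tested by exact permutation, enumerated with numpy 2.4.6 (Python 3.11.15). The ranks for rho and the relative depth were computed with scipy 1.17.1. The fit of MUT against HET was also run on simulated data in which genes varied independently of each other. Such data lack the variation shared by genes of a library, so the run does not show how small a change could be found here. With 3 kidneys a genotype, the limma p sets a difference of means against a spread estimated from these samples and from the other loci. The exact permutation p of a comparison ranks the observed difference among all ways to label the libraries.

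The main fit has no replicate block, since the labels do not tie a number to a cross. The alternatives were pseudocounts of 0.1 and 3, minimums of 1 FPKM and none, rescaling by median ratios or quantiles, a joint fit of all 9 libraries, a replicate block, no trend and each library left out. The members, the gene lists, the tests and the rule for naming genes (every member, *Ntn1*, and the 4 members of each list with the highest mean) were chosen with earlier results of these data known. Other list genes were named after their values were seen. Read numbers are unknown, so counting error cannot be given. Some items are not reported here.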

Additional observations from a re-analysis of the deposited data

How the results depend on the processing

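No member passed the adjusted threshold under any alternative run, and of 438 member values under another setting, 413 kept their direction. Of the 25 that reversed, 24 left out a library and 1 did not (*Irx1* in HET against WT, 0.01 with quantile rescaling). In MUT against HET they were *Slc12a1* (-0.26 without MUT-2, -0.07 without HET-3, -0.06 without both HET-2 and HET-3), *Kcnj1* (-0.09) and *Umod* (-0.02) without MUT-2, *Slc12a3* (0.17) and *Sim1* (0.07) without MUT-3, *Irx1* (-0.04) without HET-3 and *Tfap2b* (0.00) without HET-2. Leaving out 1 library moved *Slc12a1* up to 0.33, *Irx1* up to 0.47, *Tfap2b* down to -0.18 and *Sim1* down to -0.20 in that comparison. In MUT against WT they were *Umod* (0.06) without MUT-3 and *Irx2* (-0.08) without MUT-2 or without WT-2. In HET against WT they were *Irx1* (0.27 without HET-3, 0.25 without WT-1, 0.22 without both HET-2 and HET-3), *Irx2* (0.04 without HET-3, 0.05 without both), *Irx3* (-0.07 without HET-1, -0.01 without HET-2, -0.05 without WT-2, -0.08 without WT-3), *Tfap2b* (0.01 without HET-3, 0.04 without WT-1) and *Sim1* (0.01 without WT-3). There the other ends of the ranges were -0.16 for *Irx1*, -0.28 for *Irx2*, 0.16 for *Irx3*, -0.20 for *Tfap2b* and -0.35 for *Sim1*. The cause was not tested.

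Over all loci, 0 were called in each comparison, and leaving out 1 library gave between 0 and 3 in each, while without both HET-2 and HET-3 there were 5 in MUT against HET and 46 in HET against WT, where the lone HET library is assumed to vary like the others. That setting, and the fits of low genes without a minimum under each other alternative, were added after seeing the data. With the replicate block, 0 loci and 0 members were called, and unadjusted p below 0.05 were found at 494, 201 and 233 loci in MUT against HET, MUT against WT and HET against WT, against 636, 65 and 108 without it. Deviations of same-numbered libraries correlated between -0.32 and 0.557 across genes, with both signs in each comparison. They are deviations from means of 3 libraries, so these values cannot tell whether the numbers pair the samples. With the depth unknown, how far counting error limits the lowest genes was not tested.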
